A study of Mus musculus with 24 samples.

Results

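Spinal cords of SOD1-G37R males that had received an AAV-MIF vector were compared with those of non-transgenic (NT) males, to ask which disease-related changes in expression were present under treatment. The comparison held 4 AAV-MIF SOD1-G37R males and 4 NT males, which are 8 of the 24 mice in the series, and it covered all 15524 genes of the deposited table. The SOD1-G37R line, bred to C57BL6 mice, holds a lox-flanked transgene of mutant human SOD1 and models ALS with a late onset. The treated mice were injected after disease onset with AAV-PHP.eB carrying MIF with an HA tag. NT males received nothing, and another 4 SOD1-G37R males, labelled as not treated, were measured beside them. These 12 mice are called the all-male experiment here. The other 12 mice, 3 females and 3 males of each genotype, none of them treated, are called the mixed-sex experiment. The paper does not describe the treated mice, so their experiment was read from their label codes. Their age, the injection route, the promoter and the species of the MIF sequence are not given in the sources used here. No group received an empty or control vector. Genotype, vector, injection and MIF therefore cannot be told apart in the comparison with NT mice. Vector, injection and MIF cannot be told apart in the comparison with untreated mutants either.

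Astrocytes and microglia respond to dying motor neurons. Microglia take on a phagocytic state with high expression of lysosomal, complement and antigen presentation genes, and astrocytes raise intermediate filaments and acute-phase proteins. MIF, macrophage migration inhibitory factor, is a cytokine that binds the receptor CD74, which is also the invariant chain of MHC class II. MIF also acts as a chaperone for misfolded SOD1, and AAV-PHP.eB is a capsid that enters the central nervous system of C57BL6 mice from the blood.

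Values are log2 units as deposited, after the authors' batch removal, and each change below is a difference of group means on that scale. Genes were called in limma where the p-value adjusted by Benjamini-Hochberg was under 0.05, with the 12 males sharing 1 estimate of the spread. Replicates are separate mice. Depth per mouse is unknown, and 3618 genes lie under a mean level of 2, where 0.332% were called, against 5.42% of genes at a level of 8 and over. Marker genes of neurons (Snap25, Nefl, Chat), astrocytes (Gfap, Aqp4), oligodendrocytes (Mbp) and microglia (Cx3cr1, P2ry12) were all present in each of the 12 males, the lowest value being 2.18 for P2ry12. In bulk tissue, fewer cells of a type and less RNA per cell cannot be told apart.

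The mouse Mif gene was not called higher in treated males. It measured 10.02, 9.73, 9.77 and 9.57 in the treated mice numbered 1 to 4 and 9.65, 9.58, 9.91 and 9.75 in the NT males, so the groups overlapped. The difference was 0.05 (exact permutation test, two-sided, p = 0.66, n = 4 per group, where 0.029 is the smallest p possible). Without treated mouse 1 the difference was -0.03. Whether transcripts of the vector would be counted under the mouse Mif gene is not stated. The mouse gene Sod1, as distinct from the human transgene, differed by -0.16 (exact permutation test, two-sided, p = 0.14). Ddt, a homolog of Mif, differed by -0.14 (limma, adjusted p = 0.66).

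Treated mutant cords had more higher than lower genes against NT cords, and of 30 gene lists those of disease-associated microglia, reactive astrocytes, the lysosome and complement held the most higher calls. In limma, 448 genes (2.89% of those tested) were called higher and 35 (0.225%) lower, 483 in all (3.11%), and 152 called genes changed by more than 1 log2 unit. At an unadjusted p under 0.05, 1401 genes were higher and 834 lower. The untreated mutant males, set against the same 4 NT males, gave 521 higher (3.36%) and 74 lower genes (0.477%). Their 595 calls (3.83%) became 373 without NT male 1 and 344 without NT male 4. The count of lower genes was the less stable. Without NT male 1, 3 or 4 it was 15, 17 and 14, and without treated male 3 it was 10. Higher genes numbered 290 without NT male 4 and 266 without treated male 3. Higher calls made up 92.8% of all calls, 82.0% after median centring of the mice and 71.7% when all 24 mice were fitted together.

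The 12 largest rises, taken by the rule given with the methods, included microglial, macrophage and astrocyte genes, and 11 of the 12 had also risen in untreated mutants of the mixed-sex experiment. Serpina3n, an acute-phase protease inhibitor of reactive astrocytes, measured 10.52, 10.07, 10.89 and 10.42 in the treated mice against 7.69, 7.52, 7.17 and 7.23 in NT mice. Every treated mouse lay more than 2 log2 units above the highest NT mouse, and the change was 3.08 (SE 0.21, adjusted p = 7.6e-07). Lyz2, the lysozyme of macrophages and microglia, measured 7.93, 9.34, 9.67 and 9.19 in the treated mice against 6.26, 6.09, 5.32 and 5.39. Its change was 3.27 (SE 0.36, adjusted p = 8.4e-05), with treated mouse 1 the lowest of its group. Lgals3, the galectin of phagocytic microglia, rose by 2.88 and Cd68, a lysosomal membrane protein of phagocytes, by 2.57. The other members were Cd74 (2.56), the microglial receptor gene Fcrls (2.42), the growth factor gene Igf1 (2.12), the intermediate filament gene Vim (2.12), Cd52 (2.09), the NADPH oxidase subunit Cyba (2.07) and the stress-response regulator Nupr1 (2.07). Lack of overlap between the groups was a condition of that rule. Over the whole table it held for 1006 higher (6.48%) and 492 lower genes (3.17%).

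Mir692-1 had the largest change by value but was carried by 2 mice. It measured 4.97, 4.29, 9.33 and 8.63 in the treated mice against 3.33 to 3.63 in NT mice, so treated mice 3 and 4 stood more than 3 units above the others of their group. The change of 3.29 (SE 0.79, adjusted p = 0.030) lost its call without either of these mice, with adjusted p = 0.099 without mouse 3 and 0.090 without mouse 4, and also without any NT male (adjusted p from 0.061 to 0.092). The row is annotated as a miRNA gene with several copies in the genome, so its reads are uncertain, and a library of polyadenylated ends does not measure the mature miRNA.

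**Figure D1:**
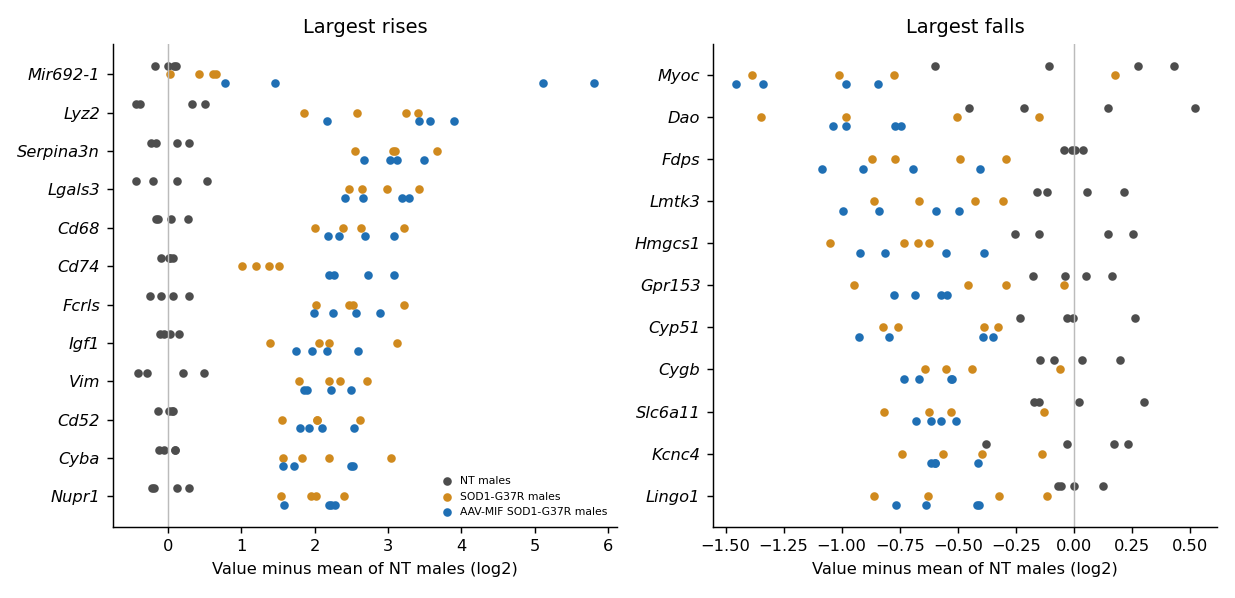
Value of each mouse minus the mean of the 4 NT males (x axis, log2), for the 12 largest rises (left) and 11 of the 12 largest falls (right), with a row of points per gene and group. Treated males lie apart from NT males in every row, as the rule for choosing the genes required. They lie beside the untreated mutants in nearly all rows, with Cd74 the exception among the rises and Mir692-1 spread by 2 mice.

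The lower genes were few and included several of sterol synthesis. Fdps, farnesyl diphosphate synthase, measured 6.83, 7.34, 6.65 and 7.05 in the treated mice and 7.70, 7.73, 7.78 and 7.75 in NT mice. The NT mice were nearly identical and all treated mice lay below them, with a change of -0.77 (SE 0.15, adjusted p = 0.0063). Hmgcs1, the synthase early in the pathway, fell by 0.67 (adjusted p = 0.017), the demethylase gene Cyp51 by 0.61 (0.045) and Srebf2, the transcription factor that drives these genes, by 0.51 (0.031). In the cholesterol synthesis list, 5 of 17 measured members fell, beside 0.225% of all genes, and none rose, with a median change of -0.40 beside 0.001 for all genes. The same list had a median of -0.41 in untreated males and -0.37 in the mixed-sex experiment. Without NT male 1, treated male 1 or treated male 3 only 1 member was called, and without NT male 2 or 4 only 2.

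The largest fall was that of Myoc, a secreted glycoprotein gene, at -1.16 (SE 0.28, adjusted p = 0.030). It measured 3.93, 4.04, 4.40 and 4.54 in treated mice against 5.28, 5.81, 4.78 and 5.66 in NT mice. Dao, D-amino acid oxidase, fell by 0.88, the kinase gene Lmtk3 by 0.73, the orphan receptor gene Gpr153 by 0.65, the globin gene Cygb by 0.61, the astrocyte GABA transporter gene Slc6a11 by 0.60, the potassium channel gene Kcnc4 by 0.56 and Lingo1, a receptor component at axons and myelin, by 0.56. Calls for Fdps, Lmtk3 and Cygb held without each of the 8 mice in turn. The other 8 genes plotted were each lost without at least 4 of the 8 mice, at adjusted p values up to 0.16.

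A disease signature was then read in mice that are in neither arm. In the mixed-sex experiment, 2030 genes (13.1%) were higher and 1720 (11.1%) lower in SOD1-G37R than in NT mice, with sex in the model. No mouse is shared with the treated comparison, but the authors corrected the batches of both experiments together. Of the 2030 higher genes, 424 (20.9%, beside 2.89% of all genes) were called higher in treated males, none was called lower, and 1911 (94.1%) had a positive change. Their median change was 0.30 in treated males and 0.48 in the mixed-sex experiment, and the slope of the former on the latter was 0.71. In untreated males of the all-male experiment, 500 were called, at a median of 0.33 and a slope of 0.74. The mixed-sex values chose the genes of both directions and so are large by that choice. Medians and slopes set against them, here and below, therefore cannot show a weaker change. Without NT male 4 the treated count was 281, and without treated male 3 it was 255.

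The lower part of the signature held few calls. Of the 1720 lower genes, 28 (1.63%, beside 0.225% of all genes) were called lower in treated males and 1579 (91.8%) had a negative change, at a median of -0.21 against -0.44 in the mixed-sex experiment and a slope of 0.42. Untreated males gave 63 calls, a median of -0.23 and a slope of 0.48. The treated count was 11 without NT male 1 or 4, 12 without NT male 3 and 7 without treated male 3. In the fit of all 24 mice it was 324, and that of the higher part 855. That fit holds the mixed-sex mice in which the signature was chosen, so both counts depend in part on that choice.

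The strongest signature genes gave the following counts. Of 248 genes with a rise of more than 1 in the mixed-sex experiment, 213 (85.9%, beside 2.89% of all genes) were called higher in treated males. Their median change was 1.05 against 1.32, and 226 were called in untreated males. Of 35 genes with a fall of more than 1, 5 (14.3%, beside 0.225% of all genes) were called lower in treated males. Their median change was -0.42 against -1.07, and 10 were called in untreated males. From the side of the treated comparison, 424 of the 448 higher genes (94.6%) and 28 of the 35 lower genes (80.0%) were in the signature with the same direction. Of all genes, 13.1% were in the higher and 11.1% in the lower signature.

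**Figure D2:**
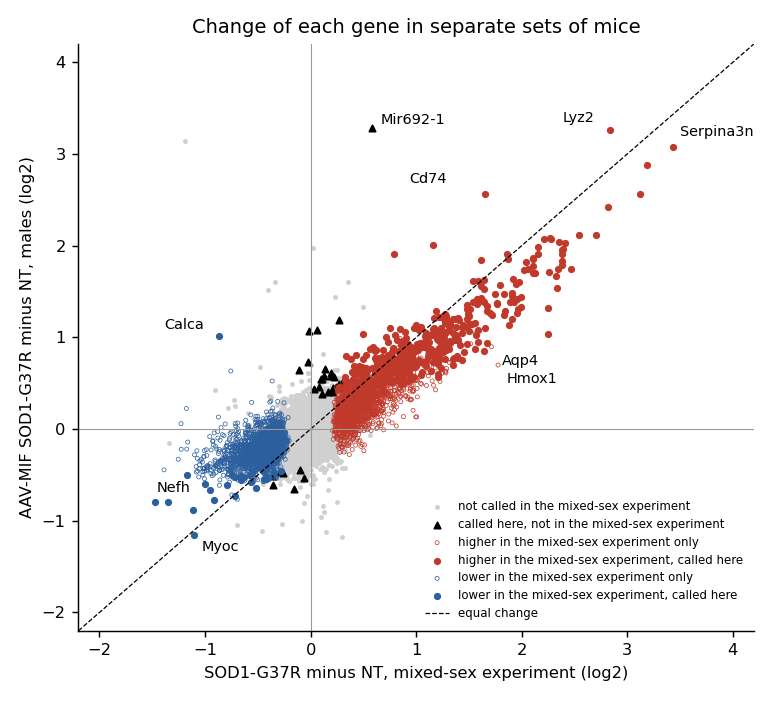
Change of each gene in SOD1-G37R minus NT mice of the mixed-sex experiment (x axis, log2) and in AAV-MIF SOD1-G37R minus NT males (y axis, log2), with the dashed line marking equal change and filled red or blue points and black triangles the genes called in the treated comparison. Most red points on the right lie just under the line, most blue points on the left lie near 0 on the y axis, and Calca and Cd74 stand above their neighbours. Red and blue genes were chosen on the x axis values, which are large by that choice.

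A signature index was computed for each mouse as the mean of the higher signature genes minus the mean of the lower ones, each gene centred on the NT males. It measured 0.64, 0.42, 0.77 and 0.59 in the treated mice, 0.60, 0.70, 0.94 and 0.35 in untreated males of the same experiment, and 0.05, 0.16, -0.14 and -0.07 in NT males. All treated mice lay above all NT males and within the range of the untreated males. The means were 0.61 ± 0.14 (SD, n = 4) in treated and 0.65 ± 0.24 (SD, n = 4) in untreated males. Mutants of the mixed-sex experiment, whose values chose the genes and so stand high by that choice, had 0.95 ± 0.14 (SD, n = 6). The index is a description and was not tested.

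**Figure D3:**
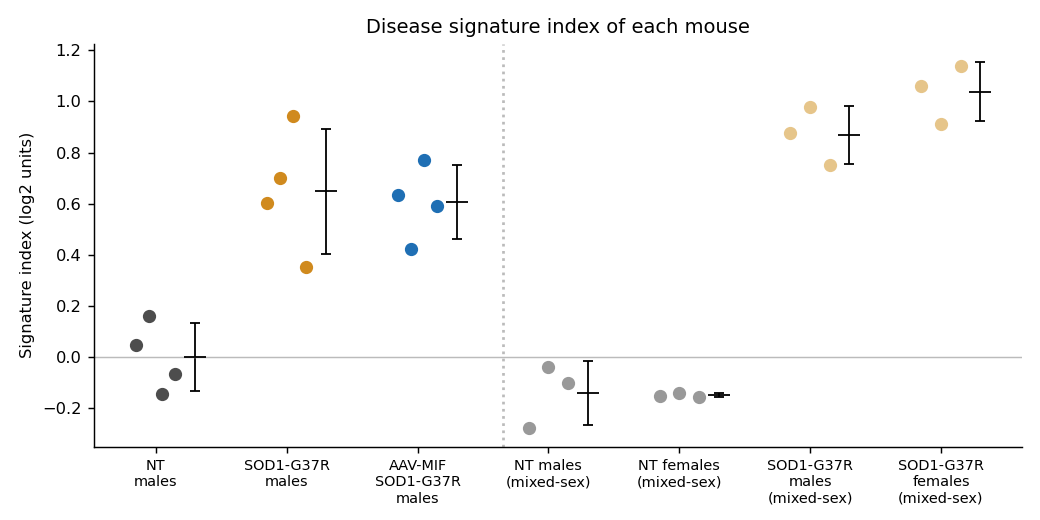
Signature index (y axis, log2 units) of each of the 24 mice by group, with points for mice and bars for the mean and SD; groups right of the dotted line belong to the mixed-sex experiment, in which the signature genes were chosen. The 4 AAV-MIF SOD1-G37R males lie between 0.42 and 0.77, among the untreated SOD1-G37R males and above all NT males.

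Most genes of disease-associated microglia were higher in treated males. Of 29 measured members of that list 22 rose, beside 2.89% of all genes, and none fell, with a median change of 1.3 in treated males, 1.5 in untreated males and 1.7 in the mixed-sex experiment. No treated mouse lay outside this pattern, as the mean level of the list was 7.33 to 7.81 in treated, 7.08 to 7.97 in untreated and 6.01 to 6.26 in NT males. Trem2, the lipid-sensing receptor that drives this state, measured 8.54, 8.27, 8.90 and 8.13 in treated mice against 6.43, 6.84, 6.49 and 6.26 in NT mice, a rise of 1.96 (SE 0.22, adjusted p = 8.6e-05). Cybb, the catalytic subunit of the phagocyte oxidase, rose by 1.39. Of 15 genes of resting microglia 5 rose, among them Fcrls and the fractalkine receptor Cx3cr1 (0.78), and none fell, at a list median of 0.10.

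Most measured complement and lysosomal genes were called higher. In the complement list 11 of 18 measured members rose, beside 2.89% of all genes, and none fell, at a median of 0.74 in treated and 0.70 in untreated males. C1qc, a chain of the initiating complex, measured 10.33, 9.79, 10.49 and 9.97 in treated mice and 8.13 to 8.22 in NT mice, a rise of 1.97 (SE 0.19, adjusted p = 2.3e-05). C1qa rose by 1.87, the complement receptor subunit Itgb2 by 1.91 and C4b by 1.78, though reads of C4b may be shared with the near-identical C4a. In the lysosome list 17 of 26 members rose, beside the same 2.89%, and none fell, at a median of 0.89 and 0.90 in treated and untreated males. The proteases Ctsd and Ctsz rose by 1.75 and 1.74.

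Most reactive astrocyte genes were also called higher, and genes of astrocyte functions were not called. In the reactive list 17 of 25 members rose, beside 2.89% of all genes, and none fell, with a median of 1.1 in both mutant groups and 1.3 in the mixed-sex experiment. Gfap, the astrocyte intermediate filament, measured 12.62, 12.16, 12.81 and 12.10 in treated mice against 11.01, 11.12, 10.76 and 10.47 in NT mice, a rise of 1.58 (SE 0.20, adjusted p = 0.00021). The small heat shock protein gene Hspb1 rose by 1.91 (SE 0.23, adjusted p = 0.00016). None of 16 astrocyte function genes was called, at a median of 0.02. Aqp4, the water channel of astrocyte endfeet, had a change of 0.90 (adjusted p = 0.062) beside 0.98 in untreated males and 1.71 in the mixed-sex experiment, and the glutamine synthetase gene Glul had a change of -0.23.

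Further inflammatory lists were called in part. Among chemokines and cytokines 7 of 16 measured members rose, beside 2.89% of all genes, including Cxcl16 (1.62), Ccl6 (1.31), Tgfb1, Ccl5 (1.08) and Ccl4 (0.97). In the NF-kappa B list 4 of 19 rose, the receptors Cd14 (1.2), Tlr2 (1.12) and Tnfrsf1a (1.11) and the regulator Bcl3 (1.03). Of 19 interferon-stimulated genes only Ifitm3 (0.68) was called, a share near that of all genes, its groups overlapped, and the call was lost without any one of NT males 1 to 3 or treated males 1, 3 and 4. Atf3, a stress-induced transcription factor, rose by 1.62 (SE 0.15, adjusted p = 2.4e-05) and with Hspb1 made the 2 called of 18 heat shock and unfolded protein response genes. None of 6 measured T-cell markers was called, at a median level of 1.5 where few genes of the table were called at all.

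**Figure D4:**
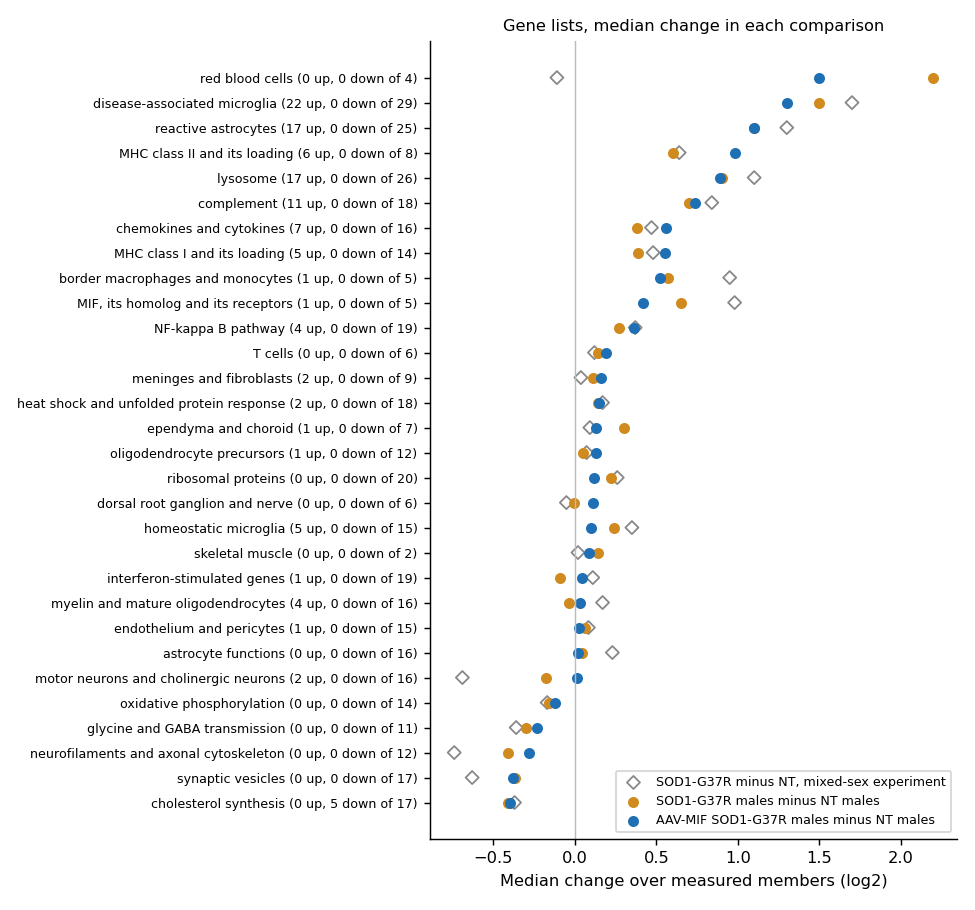
Median change over the measured members of each of 30 gene lists (x axis, log2) in the treated comparison (blue), in untreated against NT males (orange) and in the mixed-sex experiment (open diamonds); the labels give the members called up and down in the treated comparison. Disease-associated microglia, reactive astrocyte, lysosome and complement lists lie on the right in all comparisons, astrocyte function and myelin lists lie near 0 in both all-male comparisons, MHC class II lies further right in treated than in untreated males, and motor neuron and neurofilament lists lie nearer 0 in both all-male comparisons than in the mixed-sex experiment.

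The mean level of the MHC class II list, which includes Cd74, was higher in treated males than in the other males of the experiment. In the MHC class II list 6 of 8 measured members rose, beside 2.89% of all genes, and none fell, at a median of 0.98, beside 2 called members and a median of 0.60 in untreated males. The mean level of the list was 4.46 to 5.21 in treated, 3.88 to 4.37 in untreated and 3.47 to 3.67 in NT males. These means did not overlap between any of the groups, but Cd74 is among the 8 members averaged. H2-Aa, H2-Ab1 and H2-Eb1 each overlapped between treated and untreated males, and the list was not tested without Cd74. Cd74 measured 7.79, 7.32, 7.26 and 8.14 in treated mice, 6.07, 6.44, 6.57 and 6.26 in untreated males, and 5.07, 5.12, 5.09 and 4.96 in NT males. The rise over NT was 2.56 (SE 0.17, adjusted p = 7.6e-07), against 1.27 in untreated males and 1.66 in the mixed-sex experiment.

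The chains of the class II heterodimer followed the same order of means with more spread. H2-Aa, an alpha chain gene on chromosome 17 from 34282744 to 34287823 of GRCm38, measured 7.27, 5.73, 5.94 and 6.68 in treated, 5.72, 5.32, 5.77 and 4.92 in untreated and 4.21, 4.29, 4.57 and 4.52 in NT males. It rose by 2.01 over NT (SE 0.27, adjusted p = 0.00035), and treated mouse 2 lay within the range of the untreated males. H2-Ab1, a beta chain gene, rose by 1.91 (adjusted p = 0.0051) and H2-Eb1 by 1.19 (0.0040). The peptide-loading genes H2-DMb1 and H2-DMa rose by 0.77 (0.028) and 0.76 (0.023). H2-Oa and H2-Ob, whose products restrain loading, had changes of 0.30 and 0.14 and were not called.

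Class II promoters share a short control module that includes the Y box, an inverted CCAAT element bound by NF-Y, and the windows that hold its letters are shown for the class II genes, of which some were called and some were not. CTGATTGG was searched on both strands in RefSeq promoter windows of GRCm38.p6, 250 bases before to 50 after the start, and 4.1% of all 32851 windows held it. Of 7 class II genes, 6 had a window and 3 held the letters, H2-Aa, H2-Eb1 and H2-Oa. Capitals mark the match, 51 bases before the start of H2-Aa (chr17:34287856-34287885, minus strand), 62 before that of H2-Eb1 (chr17:34305794-34305823, plus strand) and 46 before that of H2-Oa (chr17:34092322-34092351, plus strand).
H2-Aa: aagagaattttCTGATTGGttctggcgagt
H2-Eb1: ctcctttgatgCTGATTGGctcccagcact
H2-Oa: agagaactgctCTGATTGGctgcttaccgc
H2-Aa and H2-Eb1 rose, H2-Oa was not called, and H2-DMa and H2-DMb1 rose without these letters in their windows. A match is a description of the window only.

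Some MHC class I genes were also higher. Of 14 measured members 5 rose, beside 2.89% of all genes, and none fell, at a median of 0.55, beside 4 and 0.39 in untreated males. H2-K1 rose by 1.12, H2-D1 by 1.10, H2-T23 by 1.10 and the immunoproteasome subunit gene Psmb8 by 1.10. The class I genes are near-identical in part, so the split of their reads is uncertain.

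The direct test of treated against untreated mutants called 1 gene, Cd74 (0.00644% of those tested), and 511 genes at an unadjusted p under 0.05. Cd74 was higher in treated males by 1.29 (95% confidence interval 0.94 to 1.65, adjusted p = 0.016), and all 4 treated mice lay above all 4 untreated ones. The call was lost without treated male 1 (1.24, adjusted p = 0.092) and with the replicate number as a block (adjusted p = 0.076). The other class II genes were not called: H2-Ab1 differed by 1.05 (95% interval 0.30 to 1.81), H2-Aa by 0.97 (0.40 to 1.54) and H2-Eb1 by 0.54 (0.09 to 0.99). For the leading glial genes the intervals lay around 0, such as -0.46 to 0.42 for Serpina3n, -0.47 to 0.49 for Cd68 and -0.38 to 0.40 for C1qc. Of 5 measured genes for MIF, its homolog and its receptors, Cd74 alone was called against NT. Between the mutant groups, Cd44 differed by -0.15 (-0.59 to 0.30) and Cxcr4 by -0.23 (-0.56 to 0.10).

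Next in the order of p-values in that test came Calca, 1600012H06Rik, the cell cycle transcription factor gene E2f4, Ighg2c and Ccl5, none of them called. 1600012H06Rik differed by 0.59 and E2f4 by 0.50, and neither was called against NT (adjusted p = 0.14 and 0.16). Calca, which encodes CGRP of motor and sensory neurons, measured 7.21, 7.33, 6.52 and 7.12 in treated, 5.45, 6.20, 5.97 and 6.11 in untreated and 6.32, 5.79, 6.0 and 6.0 in NT males. It rose over NT by 1.02 (SE 0.19, adjusted p = 0.0045), and it was the only gene of the lower signature called in the opposite direction, with -0.87 in the mixed-sex experiment. Against untreated males the difference was 1.11 (95% interval 0.72 to 1.51, limma, adjusted p = 0.14). It passed the threshold with a variance trend (0.0076), with a filter on level (0.024) and without treated male 3 (0.014). It also passed in the fit of all 24 mice (0.0055), which pools untreated mutants of both experiments.

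Ighg2c, a constant region gene of immunoglobulin G, measured 2.54, 1.05, 1.94 and 2.51 in treated mice and 0.88 to 1.01 in all 8 other males. Treated mouse 2 lay just above that range and the other 3 clearly above it, with a change over NT of 1.07 (SE 0.23, adjusted p = 0.015) that was at the threshold without NT male 1 (0.050). Without treated male 2, the treated mouse nearest to the other males, its difference from untreated males of 1.37 was called (limma, adjusted p = 0.00074). The mean level of Ighg2c over the 8 compared mice was low, at 1.48, and under a level of 2 only 0.332% of genes were called. Reads of Ighg2c may be shared with the similar Ighg2b. Ccl5, a chemokine of activated T cells and macrophages, measured 4.18, 3.49, 3.43 and 3.34 in treated, 2.83, 2.30, 2.73 and 3.03 in untreated and 2.26, 2.79, 2.19 and 2.88 in NT males. Its changes were 1.08 over NT (adjusted p = 0.0058), 0.19 in untreated males and 0.06 in the mixed-sex experiment.

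**Figure D5:**
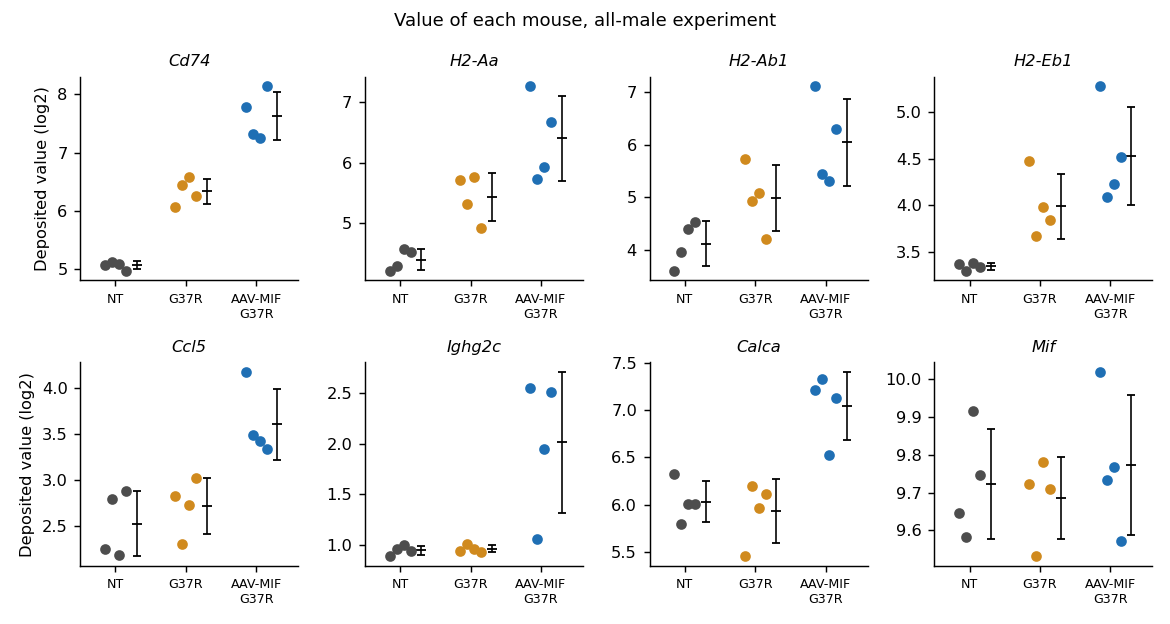
Deposited value (y axis, log2, a separate range per gene) of Cd74, 3 class II chains, Ccl5, Ighg2c, Calca and Mif in each NT, untreated (G37R) and treated (AAV-MIF G37R) male, with bars for the mean and SD. Cd74, Ccl5, Ighg2c and Calca have all 4 treated mice above all untreated ones, and Mif overlaps in all groups.

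Neuronal genes of the signature were rarely called in treated males, but only 0.225% of all genes were called lower there. Beside that share, an absence of calls is no result about the neuronal lists given here and below. Neurofilament and axonal cytoskeleton genes had a median change of -0.28 in treated males, with none of 12 called, beside -0.41 in untreated males and -0.74 in the mixed-sex experiment, where 11 were lower. Nefh, the heavy neurofilament chain of large motor axons, measured 9.51, 10.61, 9.92 and 10.27 in treated mice against 10.55, 10.42, 10.54 and 10.57 in NT mice. Treated mouse 2 lay above every NT mouse and the others below, for a change of -0.44 (SE 0.22, adjusted p = 0.36). The untreated males had a change of -0.79 (adjusted p = 0.053) and the mixed-sex mutants -1.39. Nefm, the medium chain, had changes of -0.33, -0.61 and -1.25 in the same order. Both genes were among those named for a large mixed-sex fall without a call in treated males, which favours a smaller treated change.

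Motor neuron and cholinergic genes had a median change of 0.01 in treated males, -0.18 in untreated males and -0.69 in the mixed-sex experiment, where 10 of 16 were lower. Members called in treated males, beside 2.89% of all genes called higher, were Calca and Spp1. The latter, a gene of motor neurons that is also made by microglia, rose by 1.67 and is also in the disease-associated microglia list. Prph and Chodl were named for a large mixed-sex fall without a call in treated males, so a smaller treated change was favoured by that choice. Prph, peripherin, had a change of 0.22 in treated males, -0.05 in untreated males and -1.18 in the mixed-sex experiment. Chodl, a marker of fast motor neurons, had 0.06, -0.44 and -1.23. None of these differed between treated and untreated males beyond the threshold, and the interval for Chodl was 0.08 to 0.92. The sign for Prph and Chodl was negative in the fit of all 24 mice, as it was for Chodl without treated male 2.

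Synaptic vesicle genes had negative median changes, with no call in treated males, where 0.225% of all genes were called lower. None of 17 was called in treated males at a median of -0.38, beside 2 called and -0.37 in untreated males and 14 lower and -0.63 in the mixed-sex experiment. Syn2, a synapsin gene, had a change of -0.44 (adjusted p = 0.055) with no overlap between groups. In the fit of all 24 mice 12 of the 17 were lower, and without treated male 1 or 2 the count was 1 or 2. None of 11 glycine and GABA transmission genes was called, at medians of -0.23, -0.30 and -0.36 in treated, untreated and mixed-sex mutants.

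Oligodendrocyte genes were changed in small numbers. Of 16 myelin genes 4 rose, beside 2.89% of all genes, and none fell: Opalin (1.23), Apod (0.68), the transferrin gene Trf (0.60) and the tight junction gene Cldn11 (0.57), at a list median of 0.03. Calls for Apod were lost without NT males 1, 3 or 4 or treated males 1, 3 or 4. Gpr17, a receptor of differentiating precursors, rose by 0.81, a call lost without NT male 1 or 4 or treated male 3, and it was the only one of 12 precursor genes called. No oxidative phosphorylation gene of 14 and no ribosomal protein gene of 20 was called, at medians of -0.12 and 0.12.

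A small number of calls lay outside the signature. Besides Ccl5, H2-Eb1 and Ighg2c, the transcription factor subunit gene Taf13 rose by 0.65 (adjusted p = 0.0022), Anks6 by 0.43 and the phospholipase gene Pla2g4e by 0.54, with changes of at most 0.27 in the mixed-sex experiment. The proton-sensing receptor gene Gpr4 fell by 0.66 (0.015), the transporter gene Slc16a11 by 0.47 and Rpgrip1 by 0.51. Conversely, the strongest higher signature genes that were not called included Hmox1, heme oxygenase, with a change of 0.70 against 1.78 in the mixed-sex experiment. Kcns1, a potassium channel subunit gene, had 0.93 against 1.52. Choosing genes by a large mixed-sex change and no treated call favours a smaller treated value.

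Markers of cells outside the cord were followed beside these results. Of 4 measured red blood cell genes (Hba-a1, Hba-a2, Hbb-bt, Alas2), none was called, but the mean level was 8.57 in treated male 1 and 4.1 to 4.38 in the other treated mice, 3.93 to 8.24 in untreated males and 3.65 to 4.37 in NT males. Treated male 1 also had the highest H2-Aa, H2-Ab1, H2-Eb1 and Ccl5 of its group, and the part of blood content in those values was not tested. Without treated male 1, 346 genes were higher and 34 lower. Cd74 then remained called against NT (limma, adjusted p = 6.5e-06) but not against untreated males (adjusted p = 0.092). Single calls were made in other marker lists, and beside 2.89% of all genes they are no result about those lists. They were Ms4a7 (1.82) of 5 border macrophage markers, the adhesion molecule gene Icam1 (1.05) of 15 endothelial and pericyte genes and Rarres2 (0.84) of 7 ependymal genes. Of 9 meningeal and fibroblast genes, Fmod (1.91) and Spp1 rose. None of 6 dorsal root ganglion and 2 skeletal muscle genes was called, and the part of these tissues in the results was not tested.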

How the data were processed

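RNA of the lumbar spinal cord was measured by MARS-seq, which captures transcript ends and tags molecules. Per the submitters' processing notes and the paper, the authors used Trim Galore 0.4.5, cutadapt 1.15, STAR 2.5.2a, RSEM 1.2.28, GRCm38 (mm10) and DESeq2, with batch correction by SVA/ComBat. Values per mouse are on a log2 scale, as deposited by the authors. Their transform is not stated, they run from -0.79 to 14.8, and 2.22% lie below 0, so they are not counts. Depth per mouse is unknown, as the paper gives only an average over samples. Fold changes and p-values of the authors' own comparisons, also in that table, were not used. The table named 13809 genes, and GENCODE M21, which gave positions, another 1711.

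limma 3.58.1 (R 4.3.3) was run over all 15524 genes, without filter or trend, on the 12 males with group as the factor. The mixed-sex experiment was fitted with genotype and sex. Lists were described by counts and medians. Python 3.11.15 drew the plots. The fits were tested on simulated data.

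Named genes were, per direction, the 12 largest changes among called genes above the median level with no overlap; up to 4 members of smallest adjusted p per list; Mif, its homolog and receptors, and Sod1; 6 signature genes per direction that were not called; 6 called genes per direction outside the signature; and 10 genes of smallest adjusted p between treated and untreated males. Gfap, Trem2, H2-Oa, H2-Ob, H2-DMa and H2-DMb1 were added after their values were seen. Members and lists were chosen with earlier results of these data known. Some genes that the rule took are not reported here. Alternatives changed the mice, scaling, variance model, filter and threshold. A signature from the mixed-sex males alone was added after the data were seen.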

Additional observations from a re-analysis of the deposited data

Results flagged for a closer look

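Among the named genes, 15 of 303 groups of 4 mice held a mouse whose gap to its nearest neighbour was large for the range of its group (Dixon's test), and chance alone gives this in about 5% of groups. Treated male 1 stood high for Hba-a1 (10.2), Hba-a2 (9.84), Hbb-bt (9.48), Alas2 (4.8), Ndufb8 (10.3) and Ndufv1 (9.51). Treated male 2 stood low for Nupr1 (6.20), high for Kcnc4 (6.45) and apart for 1600012H06Rik (3.99). Treated male 4 stood low for Trf (12). In the NT group, male 2 stood apart for Rpl19 (8.43), male 3 for Spp1 (6.30), Slc32a1 (9.37) and Ccdc153 (3.81), and male 4 for Ina (9.48). Cd74 differed between treated and untreated SOD1-G37R males by 1.29 in the direct test.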

How the results depend on the processing

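The counts depended on the mice fitted and the threshold. The fit of all 24 mice pooled untreated mutants and NT mice of both experiments, females included, with sex and experiment as terms. Treated mutants against all NT mice gave 936 higher and 370 lower genes. Of these, 855 and 324 were in the signature, which was chosen in part of the same mice. Untreated mutants against NT mice gave 4183 genes, and treated against untreated mutants gave 4, Cd74, Calca, Ighg2c and Ighg2b. In the fit of the all-male experiment, an adjusted p under 0.01 gave 243 higher and 3 lower genes in treated against NT males. In the signature were 239 and 3 of them. The same threshold gave 261 genes for untreated against NT males and 0 for treated against untreated males. In the separate fit of the mixed-sex experiment it gave 2365. Only the 8 mice gave 71 lower genes (55 in the signature) and median centring 74 (53). A variance trend gave 3 genes between treated and untreated males and a level filter 2. In the mixed-sex experiment a change over 0.5 left 1575 genes and its males alone 1309. Leaving out each of the 8 compared mice gave 266 to 468 higher and 10 to 34 lower genes, 255 to 456 and 7 to 28 in the signature, 344 to 642 for untreated against NT males and 0 to 2 for treated against untreated males. The mean index of treated males was 1.87 with 100 genes per direction and 0.91 with the signature of mixed-sex males (untreated 1.98 and 1.0). The cause was not tested.

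The labels do not say that replicate numbers mark shared litters or days. Same-numbered mice correlated at -0.26 to 0.068 for treated and NT males, at 0.062 to 0.37 for treated and untreated males, where 2 of 4 treated mice correlated best with their own number, and at -0.17 to 0.24 for untreated and NT males. Since not all pairs were above 0.1, the number was not taken as a pairing. With the number as a replicate block, 527 genes were higher and 53 lower, and 0 differed between treated and untreated males. Signs reversed for Acta1 (-0.078 to 0.086 with a mouse left out), Mif (-0.006 median centred, -0.031 to 0.12 with a mouse left out), Chodl (-0.177 with 24 mice, -0.143 to 0.207 with a mouse left out) and Prph (-0.11 with 24 mice). No fit of the 8 mice alone can compare treated with untreated males. Depth per mouse is unknown, and weak genes were seldom called.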
